A study of Glycine max with 16 samples.

Results

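The comparison described here is the last part of soybean seed maturation under combined heat and drought, taken as whole seeds at stage R8 against whole seeds at stage R6. R6 is the full seed stage, at which the seed fills the green pod, R7 is the beginning of maturity and R8 is full maturity, when pods and seeds are ripe and dry. The samples were chosen by their labels, as the 3 stressed samples at R8 and the 3 stressed samples at R6, so that 6 of the 16 samples of the series belong to the comparison. The series covers seeds of 1 soybean cultivar at 3 stages, from stressed and non-stressed plants, with 1 Affymetrix Soybean Genome array per sample.

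All plants were of the cultivar MG/BR 46 (Conquista), which the study used as its susceptible one, and they had grown together at a mean of 24.7 °C until R5.5. The stressed plants were then moved to a greenhouse with a mean day temperature of 39.5 °C and were given water only when they wilted, while the non-stressed plants stayed where they were. The groups are stressed R8 seeds (3 arrays) and stressed R6 seeds (3 arrays), with stressed R7 seeds (3 arrays), non-stressed R8 seeds (2 arrays), non-stressed R6 seeds (3 arrays) and non-stressed R7 seeds (2 arrays) as further groups. Each replicate pools seeds of 2 pots, and within a sample the harvested seeds were selected by colour so that they were more alike in maturity. The values are log2 signals, 1 per probe set, and a difference of 1 between them is a 2-fold difference. A log2 change is given with ± its standard error from the fit, and a mean signal with ± its SD. Because whole seeds of all cell types were extracted together, fewer cells of a type and less RNA per cell cannot be told apart in any of the values below. Heat and lack of water were applied together, and their parts in a change cannot be told apart. The transfer at R5.5 preceded R6, so stressed R6 seeds had already matured under stress for a time.

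A filling soybean seed makes storage globulins, trypsin inhibitors, oil and some starch in the embryo, feeds them with sucrose and amino acids unloaded from the seed coat, and is green. During maturation the filling programme closes down, chlorophyll is broken down, the tissue dries, and transcripts of late embryogenesis abundant (LEA) proteins, small heat shock proteins and raffinose family sugars are known to gather. Many transcripts are kept in the dry seed and are used when it germinates.

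The arrays were compared first. Between 14068 and 15403 soybean probe sets per array had a log2 signal above 3. The array also holds 23394 probe sets for other organisms, and the 95th percentile of their log2 signal lay between 0.76 and 1.02 on the 16 arrays. The value 1.02 was taken as the background level, and a fold change from a group mean at or below it is given as "at least". The stressed R8 arrays were close to each other, with a mean correlation of 0.995 to 0.996 with the others of their group. Replicate 3 of stressed R6 seeds stood apart, with a mean correlation of 0.958, against 0.976 for both replicates 1 and 2, and 7.80% of the probe sets kept were 2-fold or more away from the mean of its 2 partners. It was kept in all fits, and values without it are given where they differ.

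Summed signals of tissue markers differed between the stages, though not every marker did. The summed signal of 7 embryo storage protein and inhibitor markers was at most 14.06 on the log2 scale in stressed R8 seeds and at least 14.93 in stressed R6 seeds, with no marker at background. For 4 seed coat markers the summed signal was 2.70 to 2.98 in stressed R8 seeds, where 3 of them lay at background, and 5.83 to 6.66 in stressed R6 seeds, where LAR1 did. For 5 green tissue markers, CAB3 and 4 Rubisco activase genes, it was 6.19 to 6.20 in stressed R8 seeds and 7.39 to 7.48 in stressed R6 seeds. In stressed R7 seeds that sum was 7.57 to 7.74. CAB3 had means of 3.63 in stressed R8 seeds and 6.65 in stressed R6 seeds, while none of the 4 activases was called. PSAD, a photosynthesis gene outside this set, had means of 9.05 in stressed R8 seeds and 8.69 in stressed R6 seeds. The array's GAPDH probe sets gave a 3′ minus middle difference of 1.66 to 1.77 in stressed R8 seeds and 0.72 to 0.80 in stressed R6 seeds. For actin the 3′ minus 5′ difference was 2.05 to 2.25 in stressed R8 seeds and 2.50 to 2.69 in stressed R6 seeds, while the 3′ probe set itself lay at 6.52 to 6.64 in stressed R8 seeds and 9.23 to 9.43 in stressed R6 seeds. The median log2 signal of the ribosomal RNA probe sets was 9.24 to 10.20 in stressed R8 seeds and 10.52 to 10.93 in stressed R6 seeds. The part of tissue makeup and of RNA quality in the changes below was not tested.

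Of 19194 soybean probe sets kept, 10437 differed between stressed R8 and R6 seeds (limma, adjusted p of at most 0.05 and at least 2-fold), which is 54.4% of those tested. Of these 5233 rose and 5204 fell, 27.3% and 27.1% of the probe sets tested. At an unadjusted p below 0.05 and any size 16076 differed, and on 84.6% of the probe sets the 3 R8 arrays did not overlap the 3 R6 arrays, so a call by itself is no mark of a gene. The sizes were not even. Changes of 16-fold or more were falls in 535 probe sets and rises in 139, and changes of 64-fold or more were falls in 72 and rises in 6. For 1062 of the probe sets that fell the R8 mean was at or below background, whereas for 241 of those that rose the R6 mean was. Among the 4363 genes with a name or locus number, 1426 fell (32.7%) and 767 rose (17.6%), together 50.3%, with a median log2 fold change of -0.26. These shares are the ones against which the gene groups below are read.

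Transcripts of GASA peptides, trypsin inhibitors and regulators were among those that fell most. GASA12, of a family of small peptides regulated by gibberellin, had log2 signals of 0.27, 0.33 and 0.19 in stressed R8 seeds, against 9.45, 9.39 and 9.49 in stressed R6 seeds. All R8 arrays lay below background, and the transcript was at least 343-fold lower (-9.18 ± 0.10 on the log2 scale, adjusted p = 5.96e-12). MFT, a homologue of the Arabidopsis seed regulator MOTHER OF FT AND TFL1, gave 2.08, 2.67 and 2.19 in stressed R8 seeds and 10.27, 10.32 and 10.28 in stressed R6 seeds, a 252-fold fall (adjusted p = 4.66e-11). ADR11, first described as a transcript lowered by auxin, fell 185-fold, to 2.58, 2.17 and 2.17 in stressed R8 seeds, against 9.67, 9.88 and 9.96 in stressed R6 seeds. In each of these the arrays of a stage lay close together and the stages were far apart. SALI5-4A, named as an aluminium-induced soybean gene, was 175-fold lower, with 1.39, 1.51 and 1.14 in stressed R8 seeds and 8.52, 8.55 and 9.32 in stressed R6 seeds. EU3, an accessory protein of urease, fell 103-fold, with 2.82, 3.30 and 3.22 in stressed R8 seeds and 9.90, 9.75 and 9.75 in stressed R6 seeds. NAC14, a NAC transcription factor, had 1.27, 1.09 and 1.09 in stressed R8 seeds and 7.79, 7.75 and 8.26 in stressed R6 seeds, a 110-fold fall. Its other probe set fell by less (log2 fold change -3.40), so the size for this gene is uncertain. The other probe sets of ADR11 (-5.45, against -7.53) and SALI5-4A (-4.29, against -7.45) also fell by less. Those sizes are uncertain too, though the other SALI5-4A probe set was at background in stressed R8 seeds (mean 0.14). The rest of the 12 largest falls are the Kunitz trypsin inhibitors KTI-3 and KTI-2, GASA27, the cytochrome P450 gene CYP72A67, HPT1 (at least 75-fold lower) and PRP3, a proline-rich cell wall protein (75.3-fold lower). Their log2 fold changes ran from -7.18 for KTI-3 to -6.23 for PRP3.

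**Figure D1:**
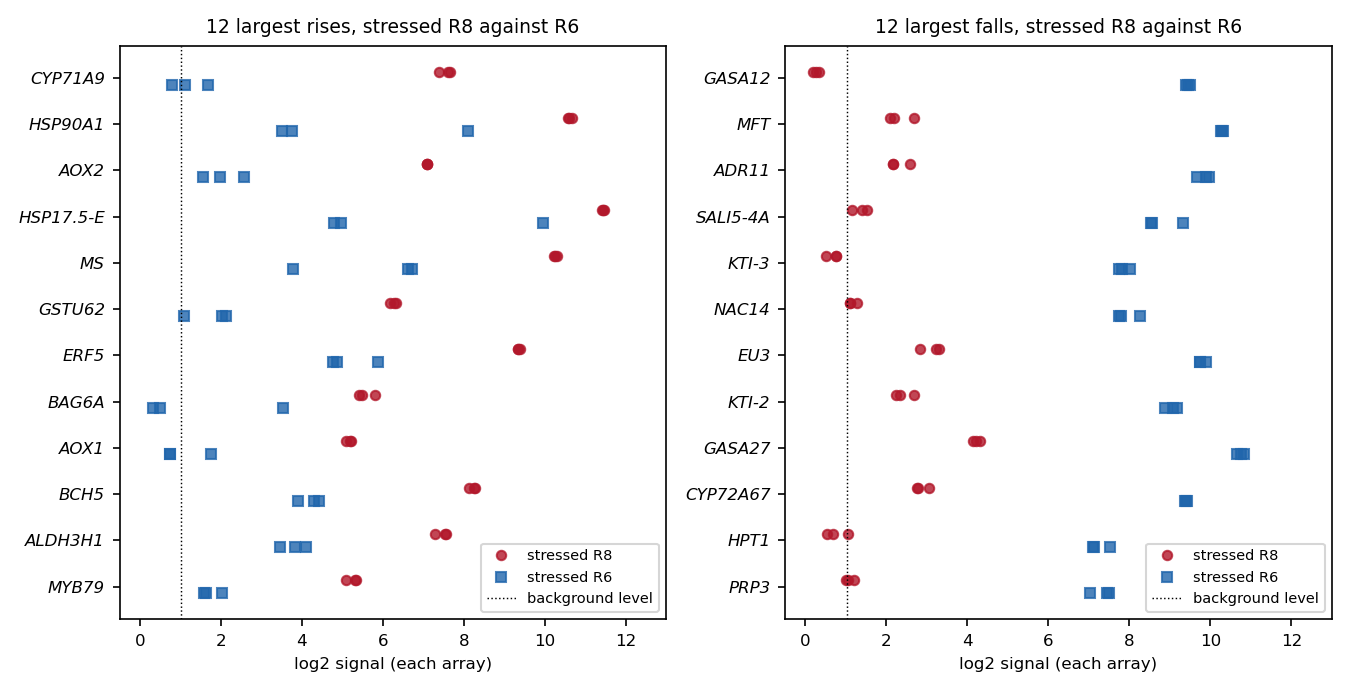
Log2 signal on each stressed array for the 12 named genes with the largest rise (left) and the 12 with the largest fall (right), with stressed R8 seeds as circles and stressed R6 seeds as squares; the dotted line is the background level of 1.02. No R8 point overlaps an R6 point, which was a condition of the choice, and 1 R6 square of HSP90A1, HSP17.5-E and BAG6A lies far from the other 2.

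Among genes with a symbol, by the probe set of highest mean and with all arrays, CYP71A9 rose most, followed by genes of several roles. HSP90A1 had a log2 fold change of 5.49 by that rule. Another of its probe sets gave 6.47, and the chosen one gave 6.98 without stressed R6 replicate 3. The order therefore depends on the probe set and on that array. CYP71A9, a cytochrome P450 gene, had log2 signals of 7.65, 7.61 and 7.38 in stressed R8 seeds, against 1.68, 1.12 and 0.79 in stressed R6 seeds, an 81.6-fold rise (6.35 ± 0.25 on the log2 scale, adjusted p = 3.89e-09). AOX2 and AOX1, of the mitochondrial alternative oxidase, which passes electrons to oxygen outside the main chain, were also among the largest rises. AOX2 gave 7.08, 7.08 and 7.08 in stressed R8 seeds and 1.98, 1.57 and 2.57 in stressed R6 seeds, and was 32.9-fold higher (adjusted p = 1.01e-08). AOX1 gave 5.08, 5.18 and 5.22 in stressed R8 seeds and 0.74, 0.75 and 1.75 in stressed R6 seeds, 16.9-fold higher. The AOX2 signal was the same to 2 decimals on all R8 arrays, while its R6 arrays were spread. GSTU62, a tau class glutathione transferase, was 22.8-fold higher, with 6.17, 6.32 and 6.28 in stressed R8 seeds and 2.03, 2.12 and 1.09 in stressed R6 seeds. ERF5, an ethylene response factor, rose 18.1-fold to 9.33, 9.38 and 9.33 in stressed R8 seeds, against 4.86, 4.77 and 5.89 in stressed R6 seeds. BCH5, a beta-carotene hydroxylase, rose 16-fold, with 8.13, 8.27 and 8.24 in stressed R8 seeds and 4.43, 4.29 and 3.91 in stressed R6 seeds. MYB79 rose 11.2-fold (log2 fold change 3.49, adjusted p = 3.29e-08). The gene listed as MS had 10.22, 10.29 and 10.26 in stressed R8 seeds and 6.61, 6.72 and 3.79 in stressed R6 seeds, a 23.4-fold rise. Its lowest R6 array was replicate 3, and when that array is left out the log2 fold change is 3.59 in place of 4.55. ALDH3H1, an aldehyde dehydrogenase, was 12.6-fold higher by its brighter probe set (log2 fold change 3.66), but its other probe set fell (log2 fold change -2.20), and the direction of the gene is uncertain. The remaining 3 of the 12 largest rises are the heat shock genes HSP90A1, HSP17.5-E and BAG6A, which are described with their group.

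The 31 lists of genes with a known role held 451 genes with a probe set above the signal limit, of which 92 rose and 187 fell. The lowest medians were those of the PEBP family (2 genes, -6.23), protease inhibitors, seed coat, cell wall, jasmonate and storage proteins, all below -1.70, and those of the stay-green and heat shock lists were the highest, both above 1. The median over all genes was -0.26. With means raised to the background level the seed coat median was -2.06, and the jasmonate median was -1.26 and no longer below -1.70. The paragraphs below take the lists by role.

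**Figure D2:**
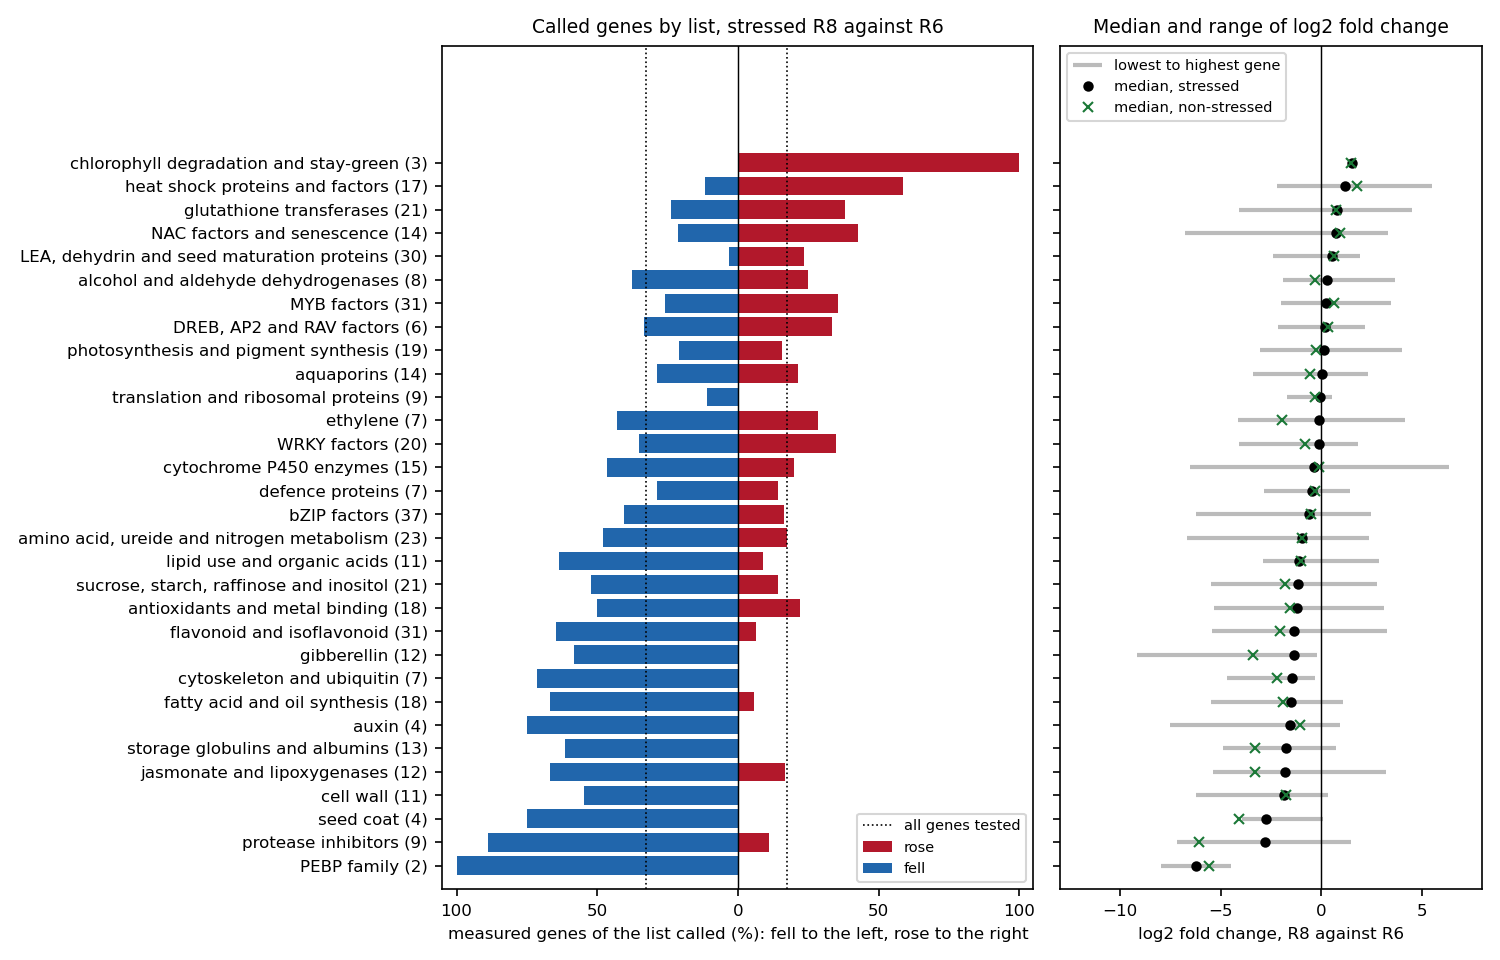
Left, the share of the measured genes of each list that rose (right of 0) or fell (left of 0) in stressed R8 against R6 seeds, with the number measured in brackets and dotted lines at the shares over all genes, 17.6% and 32.7%. Right, the median log2 fold change in stressed seeds (circles) and in non-stressed seeds (crosses) with the range from the lowest to the highest gene in stressed seeds; protease inhibitors and gibberellin genes have the widest gaps between the medians.

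Storage protein transcripts fell unequally. Of the 13 storage globulins and albumins measured, of 17 with a probe set, 8 fell, none rose and 5 did not pass, with a median log2 fold change of -1.75. The glycinin genes GY1 and GY2 did not pass. GY1, a glycinin subunit, had 12.87, 12.95 and 12.92 in stressed R8 seeds and 13.24, 13.17 and 13.14 in stressed R6 seeds (log2 fold change -0.27, adjusted p = 0.4), and GY2 had 11.58, 11.56 and 11.47 in stressed R8 seeds and 11.85, 11.94 and 11.81 in stressed R6 seeds (adjusted p = 0.15). GY1 stood near 13.28, the highest value measured, and part of a change at that level may not register. Larger falls of GY1 from R6 did register, with -2.41 to R7 in stressed seeds and -2.76 to R8 in non-stressed seeds. BG7S-1, a basic 7S globulin, had a log2 fold change of -0.42 and was under 2-fold as well. The glycinin GY5 fell 2.51-fold, to 11.12, 11.22 and 11.28 in stressed R8 seeds, against 12.52, 12.54 and 12.53 in stressed R6 seeds (adjusted p = 1.34e-05). CG-BETA-1, a beta-conglycinin subunit, fell 4.57-fold, with 9.71, 9.74 and 9.60 in stressed R8 seeds and 11.87, 12.01 and 11.75 in stressed R6 seeds. BG7S-2, the second basic 7S globulin, fell 4.72-fold with 9.09, 9.28 and 9.24 in stressed R8 seeds and 11.35, 11.42 and 11.56 in stressed R6 seeds. P34, a thiol protease homologue of the protein storage vacuole and a known allergen, was 6.24-fold lower. CG-1 and GY7 were 5.83-fold and 5.52-fold lower, and the gene listed as A1 fell most of the group (29.2-fold), with R8 arrays spread from 4.81 to 6.53.

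The protease inhibitors fell further. All 9 with a probe set were measured, and 8 fell and 1 rose, with a median of -2.82. KTI-3, a Kunitz trypsin inhibitor, had 0.75, 0.50 and 0.76 in stressed R8 seeds, at background, and 7.74, 7.81 and 8.02 in stressed R6 seeds, at least 114-fold lower. KTI-2 was 98.7-fold lower, with 2.24, 2.34 and 2.68 in stressed R8 seeds and 9.17, 9.08 and 8.88 in stressed R6 seeds. Other Kunitz genes fell by less. KTI3, the main trypsin inhibitor of the seed, still gave 9.56, 9.76 and 9.79 in stressed R8 seeds, against 12.56, 12.62 and 12.38 in stressed R6 seeds, a 7.04-fold fall (log2 fold change -2.82, standard error 0.11). KTI1 was 7.74-fold lower. The Bowman-Birk inhibitors BBI and D-II, which block trypsin and chymotrypsin, were 5.35-fold and 7.59-fold lower, with BBI at 9.72, 9.72 and 10.21 in stressed R8 seeds and 12.26, 12.27 and 12.38 in stressed R6 seeds. BBI-1 went the other way and rose 2.79-fold, to 7.04, 7.06 and 7.24 in stressed R8 seeds, against 5.30, 5.21 and 6.38 in stressed R6 seeds (adjusted p = 5.84e-04).

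Most genes of oil synthesis fell. Of 18 measured (21 with a probe set) 12 fell, 1 rose and 5 did not pass, with a median of -1.52. The desaturases that make linolenic acid fell most in the list. FAD3C had 0.52, 0.68 and 0.56 in stressed R8 seeds, all at background, and 6.11, 6.1 and 5.96 in stressed R6 seeds, at least 32.8-fold lower (adjusted p = 3.92e-11). FAD3B was 29.3-fold lower, with 1.76, 1.93 and 1.58 in stressed R8 seeds and 6.6, 6.77 and 6.52 in stressed R6 seeds. FAD2-1A, the seed oleate desaturase that makes linoleic acid, fell 11.7-fold but was still at 8.2, 8.48 and 8.48 in stressed R8 seeds, against 11.94, 11.98 and 11.91 in stressed R6 seeds. The other named members of its family did not fall. FAD2-2 was at 10.96 ± 0.03 in stressed R8 seeds and 9.98 ± 0.02 in stressed R6 seeds (SD, n = 3 each), just under the 2-fold limit with a log2 fold change of 0.99, and FAD2-3 rose 2.13-fold (adjusted p = 4.12e-06), a call that is lost without stressed R6 replicate 2 or with a further quantile normalization (log2 fold change 0.99 in both). ACCB-2, a biotin carrier subunit of the plastid acetyl-CoA carboxylase that starts fatty acid synthesis, fell at least 15.5-fold to background. WRI1B, a WRINKLED1 factor known to drive oil synthesis, was at least 3.05-fold lower, with all R8 arrays at background.

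Of 11 genes of lipid use and organic acids measured (15 with a probe set), 7 fell and 1 rose. The phosphoenolpyruvate carboxylase genes PEPC17 and PEPC7 were 7.37-fold and 4.11-fold lower, the malate dehydrogenase MDH-1 5.03-fold lower, and the carboxylase kinase PPCK2 3.52-fold lower. A second kinase of the same family moved the opposite way. PPCK4 had 5.17, 5.33 and 4.89 in stressed R8 seeds and 2.37, 2.13 and 2.24 in stressed R6 seeds, a 7.37-fold rise (2.88 ± 0.15 on the log2 scale, adjusted p = 2.41e-08).

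Most LEA, dehydrin and seed maturation protein transcripts stayed within the 2-fold limit, and 7 of the 8 that passed it rose. All 30 genes with a probe set were measured, and 22 did not pass, with a median of 0.54. In non-stressed seeds 8 rose and 1 fell, with a median of 0.64. Some members were already high in stressed R6 seeds, such as PM30 at 12.52 and PM9 at 11.91. The highest value measured was 13.28, and part of a rise near it may not register. PM29, a seed maturation protein, rose 3.82-fold, with 11.56, 11.46 and 11.51 in stressed R8 seeds and 9.45, 9.51 and 9.78 in stressed R6 seeds (adjusted p = 3.48e-08). MAT1, a dehydrin, rose 2.68-fold, with 12.63, 12.71 and 12.63 in stressed R8 seeds and 11.36, 11.30 and 11.03 in stressed R6 seeds. PM39 and PM1 rose 2.45-fold and 2.26-fold, and PM1 reached 12.33, 12.22 and 12.29 in stressed R8 seeds, against 11.19, 10.98 and 11.13 in stressed R6 seeds. In each of these 4 the lowest R8 array lay above the highest R6 array, where the arrays did not overlap on 84.6% of all probe sets. LEA-2 was the 1 member that fell (5.28-fold, adjusted p = 9.73e-07).

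The heat shock list had the largest share of rises among lists of over 3 genes. Of 17 measured (20 with a probe set) 10 rose, 2 fell and 5 did not pass, with a median of 1.17. The rise was not particular to stressed seeds, as in non-stressed seeds 11 rose and 3 fell, with a median of 1.80. There the HSP90A1 mean went from 4.82 at R6 to 9.84 at R8, and that of HSP17.5-E from 2.91 to 10.46. HSP90A1, a cytosolic chaperone of the HSP90 family, had 10.60, 10.56 and 10.67 in stressed R8 seeds, against 3.50, 3.75 and 8.10 in stressed R6 seeds, 44.9-fold higher (5.49 ± 0.94 on the log2 scale, adjusted p = 2.68e-04). HSP17.5-E, a cytosolic small heat shock protein, had 11.44, 11.46 and 11.40 in stressed R8 seeds and 4.80, 4.96 and 9.94 in stressed R6 seeds, 29.2-fold higher (adjusted p = 0.0017). In both genes R6 replicate 3 lay more than 4 log2 units above the other R6 arrays. The same array was highest for BAG6A, of a family of chaperone partners, with 5.48, 5.41 and 5.81 in stressed R8 seeds and 0.49, 0.32 and 3.54 in stressed R6 seeds. HSP22.3 gave 5.55, 5.73 and 5.78 in stressed R8 seeds and 1.95, 1.85 and 5.19 in stressed R6 seeds, 6.45-fold higher (adjusted p = 0.0044). For HSP22.5, a further small heat shock protein, the groups overlapped, with 4.43, 4.27 and 4.67 in stressed R8 seeds and 0.75, 0.54 and 4.86 in stressed R6 seeds (log2 fold change 2.41, adjusted p = 0.027).

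Without stressed R6 replicate 3 the log2 fold changes were 6.98 for HSP90A1, 6.55 for HSP17.5-E, 5.17 for BAG6A, 3.79 for HSP22.3 and 3.81 for HSP22.5, each larger than with it. Without replicate 1 or 2 of stressed R6 seeds HSP90A1 gave 4.68 and 4.80 and HSP17.5-E gave 3.99 and 4.07, while HSP22.5 gave 1.76 and 1.65 and was no longer called (adjusted p = 0.11 for both). The count of rises in the list was 11 without R6 replicate 3, and 9 without any 1 of the other stressed R8 and R6 arrays. Also higher were 5 heat stress transcription factors, HSF-03, HSF-10, HSF-14, HSF-15 and HSF-33, with log2 fold changes of 2.01, 1.38, 1.17, 1.18 and 1.14. HSF-01 (log2 fold change -2.21) and BIP4, a chaperone of the endoplasmic reticulum (-1.95), were the 2 that fell.

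**Figure D3:**
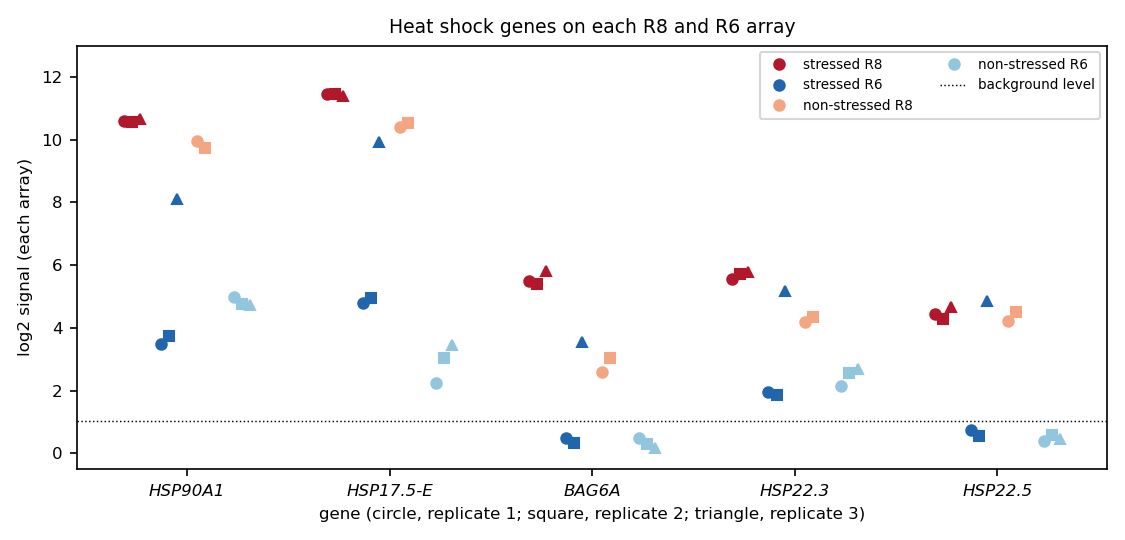
Log2 signal of 5 heat shock genes on each array of R8 and R6 seeds, stressed and non-stressed, with replicate numbers as symbols and the background level of 1.02 dotted. Replicate 3 of stressed R6 seeds (triangle) lies above both of its partners in every gene, and for HSP22.5 it overlaps the stressed R8 arrays.

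All stay-green genes measured rose. SGR1 and SGR2 are the soybean copies of STAY-GREEN, whose protein is needed to start chlorophyll breakdown. SGR1 had 8.33, 8.29 and 8.31 in stressed R8 seeds and 6.68, 6.69 and 6.28 in stressed R6 seeds, 3.39-fold higher (1.76 ± 0.12 on the log2 scale, adjusted p = 1.67e-07). SGR2 had 7.89, 7.92 and 7.81 in stressed R8 seeds and 6.48, 6.64 and 5.88 in stressed R6 seeds, 2.91-fold higher (adjusted p = 1.91e-05). The third gene of the list, SGR, rose 2.6-fold, with 6.70, 6.72 and 6.67 in stressed R8 seeds and 4.83, 5.51 and 5.60 in stressed R6 seeds. In all 3 genes every R8 array lay above every R6 array, but on 84.6% of all probe sets the arrays of the 2 stages did not overlap. SGR1 and SGR2 are close copies, and signal shared between their probe sets cannot be told apart.

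Of 19 genes of photosynthesis and plastid pigments (24 with a probe set), 4 fell, 3 rose and 12 did not pass, where all genes gave 32.7% falls and 17.6% rises, and the median was 0.13. Without stressed R6 replicate 3 the list had 5 falls and 1 rise. CAB3, a chlorophyll a/b binding protein, fell 8.15-fold, with 3.56, 3.59 and 3.72 in stressed R8 seeds and 6.70, 6.73 and 6.53 in stressed R6 seeds (adjusted p = 2.08e-09). Its other probe sets had log2 fold changes of -3.69, -4.37 and -0.14, the last not called. PETC, the Rieske protein of the cytochrome b6f complex, fell 5.16-fold. The Rubisco activase genes RCA14, RCAALPHA, RCABETA and RCA11 had log2 fold changes of -0.22, -0.73, -0.26 and 0.50 and none was called. Carotenoid genes went both ways. BCH5 rose as given above, and ZEP, the zeaxanthin epoxidase that follows it, fell at least 5.31-fold, to 1.21, 0.93 and 0.71 in stressed R8 seeds, against 3.38, 3.58 and 3.33 in stressed R6 seeds. PDS1 rose 2.13-fold, but was under 2-fold without stressed R6 replicate 3 or with array weights (log2 fold changes 0.90 and 0.94).

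Seed coat transcripts were at or near background at R8. Of 4 measured (5 with a probe set) 3 fell and 1 was at background throughout. Ep, the seed coat peroxidase, had 0.30, 0.47 and 0.30 in stressed R8 seeds, all at background, and 4.67, 4.15 and 4.11 in stressed R6 seeds, at least 9.79-fold lower (adjusted p = 2.29e-07). HPS, a hydrophobic protein found on the seed surface, fell 15.3-fold, with 1.44, 1.83 and 2.09 in stressed R8 seeds and 6.11, 5.87 and 5.19 in stressed R6 seeds. SCB1, a BURP protein of the seed coat, had 0.34, 0.43 and 0.14 in stressed R8 seeds and 2.35, 2.22 and 0.96 in stressed R6 seeds, at least 1.77-fold lower. LAR1, of proanthocyanidin synthesis, lay between 0.12 and 0.46 on all 6 arrays, so no change can be given. With means raised to the background level the median of the list moved by 0.68, the most of any list.

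Flavonoid and isoflavonoid genes were mostly lower at R8. Of 31 measured (42 with a probe set) 20 fell, 2 rose and 9 did not pass, with a median of -1.33. F3H, flavanone 3-hydroxylase, had 0.62, 0.62 and 0.92 in stressed R8 seeds and 5.87, 5.98 and 6.65 in stressed R6 seeds, at least 35.3-fold lower. The chalcone reductases CHR5 and CHR1, which steer the pathway to 5-deoxyisoflavonoids, fell 21.9-fold and 16.9-fold. CHR1 had R6 values of 5.01, 4.79 and 6.98, the highest on replicate 3, and without that array its log2 fold change was -3.39 in place of -4.08. IF7GT, which adds glucose to isoflavones, fell at least 15-fold to background, with 0.82, 1.01 and 0.84 in stressed R8 seeds and 4.90, 5.06 and 4.82 in stressed R6 seeds. IF7MaT, which adds malonate to the isoflavone glucosides made by IF7GT, rose 9.59-fold, with 8.21, 8.15 and 8.19 in stressed R8 seeds and 4.82, 4.88 and 5.08 in stressed R6 seeds (adjusted p = 4.70e-09). The last 2 steps of the same branch therefore had opposite signs.

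Most of the sugar transport and starch genes that passed fell, and the gene that starts raffinose synthesis rose. Of 21 measured (29 with a probe set) 11 fell, 3 rose and 7 did not pass, with a median of -1.14. SWEET24 and SWEET13, of the family that lets sugars out of cells, were at least 33.8-fold and at least 12.1-fold lower, and both were at background in stressed R8 seeds. SWEET24 gave 0.95, 0.17 and 0.67 in stressed R8 seeds and 5.92, 6.15 and 6.23 in stressed R6 seeds. STP1, a sugar transport protein, was 29.4-fold lower. GBSSIa, a granule-bound starch synthase, fell 29.3-fold, with 2.59, 2.44 and 3.42 in stressed R8 seeds and 7.90, 7.89 and 7.26 in stressed R6 seeds. LOC547931, which carries the synonym BMY1 of a beta-amylase, fell 21.9-fold but kept 6.33, 6.4 and 6.35 in stressed R8 seeds, against 10.98, 11.04 and 10.41 in stressed R6 seeds. GOLS, galactinol synthase, rose with a log2 fold change of 2.77.

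Among genes of amino acid, ureide and nitrogen metabolism 11 of 23 fell and 4 rose (30 with a probe set, median -0.98). With every probe set of these genes counted, 12 fell and 10 rose, so the excess of falls depends on the probe set chosen. Genes of 1 enzyme went opposite ways here too. The glutamine synthetase GS1GAMMA2 had 0.95, 0.95 and 1.20 in stressed R8 seeds and 5.14, 5.10 and 5.76 in stressed R6 seeds, 19.7-fold lower. GS1alpha, a cytosolic form of the same enzyme, had 9.84, 9.83 and 9.87 in stressed R8 seeds and 7.92, 7.65 and 6.83 in stressed R6 seeds, 5.21-fold higher (adjusted p = 2.98e-06). GDH1, a glutamate dehydrogenase, fell at least 6.17-fold to background, and ASP1 was 6.87-fold lower.

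Of 14 aquaporins (21 with a probe set) 4 fell and 3 rose, with a median of 0.05. These counts are near the shares over all genes, 32.7% falls and 17.6% rises. PIP2-1, a water channel of the plasma membrane, fell 10.4-fold, with 5.43, 5.40 and 5.64 in stressed R8 seeds and 8.86, 8.88 and 8.86 in stressed R6 seeds, and PIP2-8 fell 5.58-fold. PIP2-13 rose 4.99-fold, with 8.29, 8.29 and 8.48 in stressed R8 seeds and 5.94, 5.98 and 6.18 in stressed R6 seeds (adjusted p = 9.47e-09). NIP1-8 and SIP1-3, of the other subfamilies, were 3.52-fold and 3.43-fold lower.

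Gibberellin genes moved one way. Of 12 measured (22 with a probe set) 7 fell and none rose, with a median of -1.36. Besides GASA12, GASA27 fell 92.3-fold, with 4.14, 4.22 and 4.30 in stressed R8 seeds and 10.66, 10.82 and 10.76 in stressed R6 seeds, and GASA22 and GASA4 fell 15.5-fold and 3.84-fold. GA2OX6, which inactivates gibberellins, fell 4.07-fold, whereas GA2OX8 of the same family had a log2 fold change of -0.19. Both measured genes of the PEBP family fell. BFT, known in Arabidopsis as a floral repressor, had 0.37, 0.13 and 0.51 in stressed R8 seeds, at background, and 4.43, 4.31 and 5.71 in stressed R6 seeds, at least 13.9-fold lower. Of 4 auxin genes (8 with a probe set) 3 fell. They are ADR11, ADR12 (2.95-fold) and AFB3B, an auxin receptor (2.82-fold).

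Ethylene and jasmonate genes held both directions, where over all genes 32.7% fell and 17.6% rose. Of 7 ethylene genes (8 with a probe set) 3 fell and 2 rose. ACS1, of the enzyme that makes the ethylene precursor, had 0.10, -0.31 and 0.12 in stressed R8 seeds and 3.97, 3.66 and 4.10 in stressed R6 seeds, at least 7.4-fold lower. Its receptors went both ways. ETR2 fell 17.4-fold, with 3.72, 3.79 and 3.77 in stressed R8 seeds and 8.01, 7.90 and 7.73 in stressed R6 seeds, and EIN4 rose 6.81-fold, with 5.34, 5.44 and 5.49 in stressed R8 seeds and 3.02, 2.88 and 2.07 in stressed R6 seeds. Of 12 jasmonate and lipoxygenase genes (18 with a probe set) 8 fell and 2 rose, with a median of -1.80. That median was -1.26 with means raised to the background level. LOX2, a lipoxygenase of the seed, fell 42.2-fold, with 5.98, 6.03 and 6.04 in stressed R8 seeds and 11.54, 11.65 and 11.06 in stressed R6 seeds, and LOX1.1 fell 9.31-fold. LOX3, a further seed lipoxygenase, lay between 11.84 and 12.04 on all 6 arrays, a log2 change of -0.09 ± 0.09. AOC3, allene oxide cyclase, fell at least 17.4-fold to background, and LOC100778559, which carries the synonym JAZ1 of a jasmonate repressor, fell 29.9-fold. COI1, the jasmonate receptor, rose 9.44-fold to 8.78, 8.86 and 8.78 in stressed R8 seeds, against 5.28, 5.45 and 5.96 in stressed R6 seeds (adjusted p = 2.21e-08).

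Redox and detoxification genes held changes both ways, where over all genes 32.7% fell and 17.6% rose. Of 18 antioxidant and metal binding genes (19 with a probe set) 9 fell and 4 rose, with a median of -1.22. The iron superoxide dismutases SODB2 and SODB fell 40.7-fold and 18.2-fold, DHAR4, a dehydroascorbate reductase, had a log2 fold change of -4.13, and the peroxidase PRX2B fell 19.8-fold. SODB2 had 1.75, 1.90 and 2.38 in stressed R8 seeds and 7.23, 7.05 and 7.78 in stressed R6 seeds. CAT4, a catalase, which removes hydrogen peroxide, rose 8.74-fold, with 11.31, 11.34 and 11.34 in stressed R8 seeds and 8.31, 8.17 and 8.13 in stressed R6 seeds (adjusted p = 8.17e-10). Of 21 glutathione transferases (31 with a probe set) 8 rose and 5 fell, with a median of 0.78. GSTU30 and GSTU37 rose 9.03-fold and 5.64-fold, and GSTU28 fell 17-fold. GSTU30 had 9.16, 9.07 and 9.14 in stressed R8 seeds and 6.07, 5.74 and 6.04 in stressed R6 seeds. Of 8 alcohol and aldehyde dehydrogenases (10 with a probe set) 3 fell, among them ADH2 (3.79-fold), and 2 rose, among them ALDH10A2 (3.49-fold). Among 7 defence proteins (13 with a probe set) 2 fell and 1 rose. OLPa, an osmotin-like protein, had 3.31, 3.67 and 3.98 in stressed R8 seeds and 6.34, 5.90 and 7.33 in stressed R6 seeds, 7.31-fold lower, and PAD4, a regulator of salicylate signalling in Arabidopsis, rose 2.72-fold.

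Transcription factor families held changes both ways, where over all genes 32.7% fell and 17.6% rose. In the NAC and senescence list 6 of 14 rose and 3 fell (19 with a probe set, median 0.74). NAC51 rose 10-fold, with 5.15, 5.27 and 5.09 in stressed R8 seeds and 1.99, 1.78 and 1.75 in stressed R6 seeds, and NAC19 rose 6.6-fold, with 9.47, 9.54 and 9.46 in stressed R8 seeds and 6.71, 6.63 and 6.96 in stressed R6 seeds. SARK, a receptor-like kinase named for leaf senescence, was at background in stressed R8 seeds and was at least 3.52-fold lower. Of 20 WRKY genes (52 with a probe set) 7 rose and 7 fell. The largest change in that family was the 16.9-fold fall of WRKY51, with 2.99, 2.12 and 2.46 in stressed R8 seeds and 6.61, 6.5 and 6.70 in stressed R6 seeds. Of 31 MYB genes (67 with a probe set) 11 rose and 8 fell, and after MYB79 the largest rises were those of MYB179 (at least 5.25-fold) and MYB178 (3.99-fold). Of 37 bZIP genes (58 with a probe set) 15 fell and 6 rose, with a median of -0.63. BZIP70 had 0.52, 0.52 and 0.56 in stressed R8 seeds, at background, and 6.73, 6.93 and 6.57 in stressed R6 seeds, at least 52.9-fold lower (adjusted p = 6.07e-11). Of 6 DREB, AP2 and RAV genes (9 with a probe set) 2 rose and 2 fell. DREB2A2, of a group known for induction by drought and heat, rose 4.59-fold, with 10.77, 10.81 and 10.79 in stressed R8 seeds and 8.42, 8.53 and 8.83 in stressed R6 seeds. It rose more without stress, with log2 fold changes of 4.11 in non-stressed and 2.2 in stressed seeds.

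By the probe set of highest mean, cell wall and cytoskeleton genes fell or did not pass. Of 11 cell wall genes (13 with a probe set) 6 fell and none rose, with a median of -1.87. Besides PRP3, the expansin EXP2 was 5.95-fold lower and XTH1, a xyloglucan endotransglucosylase, 3.99-fold lower. Of 7 cytoskeleton and ubiquitin genes (8 with a probe set) 5 fell and none rose. TUBB3, a beta-tubulin, fell 25.5-fold, with 3.95, 4.01 and 4.19 in stressed R8 seeds and 8.63, 8.71 and 8.83 in stressed R6 seeds. SUBI-1, a polyubiquitin often used as a reference, fell 4.53-fold. Translation genes stood apart from these, as 8 of 9 did not pass and 1, EF1BGAMMA4, fell 3.2-fold (median -0.08). Of 15 plant P450 genes (22 with a probe set) 7 fell and 3 rose. CYP93E1, a hydroxylase of soyasaponin synthesis, fell 35.6-fold, with 5.56, 5.72 and 5.5 in stressed R8 seeds and 10.72, 10.74 and 10.78 in stressed R6 seeds, and CYP82A2 fell 30-fold.

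Stressed R7 seeds lie between the stages, and date the changes more closely. The study describes its R7 seeds as a mixture that had lost chlorophyll to different degrees. Against R6, 3837 probe sets fell and 2999 rose by R7 (35.6% called), and against R7, 3352 fell and 3733 rose by R8 (36.9% called). Of the 5204 probe sets that fell between R6 and R8, 2063 fell by R7 and not after it, 1456 fell after R7 and not before, 862 fell in both steps and 687 passed in neither step alone. Of the 5233 that rose, 2156 rose after R7 and not before, 1478 by R7 and not after, 470 in both steps and 932 in neither alone. The median share of the log2 change reached at R7 was 57.3% for falls and 41.8% for rises. The balance of falls and rises in each step depended on the scaling. After a further quantile normalization 3472 fell and 3435 rose by R7, and 3566 fell and 3396 rose after it, with median shares at R7 of 53.6% for falls and 48.0% for rises. With the array medians centred 3639 fell and 3296 rose by R7, and 3809 fell and 3389 rose after it, with median shares of 53.5% and 45.7%.

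Single genes followed each course. GASA12 had 1.14, 1.47 and 0.32 at R7, with the mean already below background, so that its fall was complete by then as far as it can be measured. ADR11, at 3.48, 2.86 and 2.82, had completed 90.0%. PRP3 was at background at R7. SALI5-4A was the opposite case, still at 7.76, 7.69 and 7.52 at R7 with 15.3% of its fall, and the isoflavone glucosyltransferase IF7GT gave 5.01, 4.46 and 4.76, with 4.5%. Among rising genes AOX2 had reached 75.2% by R7 (5.86, 5.86 and 5.77), SGR1 was at 8.31, 8.41 and 8.51 and did not change after R7 beyond the 2-fold limit, and NAC51 had reached 29.5%. HSP17.5-E was at 7.98, 8.02 and 8.18 and HSP90A1 at 5.93, 5.96 and 6.51 at R7, and both rose between R7 and R8. Between R6 and R7 neither was called with all arrays (log2 fold changes 1.49 and 1.01, adjusted p = 0.17 and 0.29), but without stressed R6 replicate 3 both rose in that step too (3.18 and 2.5, adjusted p = 1.08e-07 and 2.54e-08). The share of the change reached at R7 was then 48.5% for HSP17.5-E and 35.9% for HSP90A1, in place of 30.7% and 18.5%. PIP2-13 was at 6.21, 6.27 and 6.09 at R7, with 6.7% of its rise.

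Some transcripts turned round at R7. In stressed seeds 653 probe sets fell by R7 and rose after it, and 566 rose and then fell. These counts depended on single arrays, with 406 and 498 without stressed R7 replicate 1, 967 and 711 without stressed R7 replicate 3, and 958 and 653 without stressed R6 replicate 3. The more frequent pattern therefore changed with the array left out. GY1 was at 13.24, 13.17 and 13.14 at R6, 10.26, 10.77 and 11.29 at R7 and 12.87, 12.95 and 12.92 at R8, so that the dip at R7 is not seen when R8 is set against R6 (R7 against R6 -2.41, adjusted p = 8.52e-06, and R8 against R7 2.14, adjusted p = 2.75e-05). GY5 followed, with -2.73 and 1.41, and so did the ferritin gene SFERH-2, with 8.08, 8.22 and 8.05 at R6, 4.61, 4.56 and 4.53 at R7 and 5.73, 5.77 and 5.76 at R8. The R7 values of GY1 were spread over more than 1 log2 unit, while those of SFERH-2 were not. MYB177, NAC12, EBP and SOY69 had the same pattern, though NAC12 on stressed R6 replicate 3 was at 3.10, against 6.0 and 5.86 on its partners. The reverse pattern, a peak at R7, was found for CYP93A3 (1.23, 1.26 and 0.84 at R6, 4.14, 4.20 and 3.78 at R7 and 1.5, 1.54 and 1.55 at R8), GA2OX8, PSK5, ERF6, STP and the activases RCA14 and RCAALPHA. RCAALPHA was at 4.46, 4.57 and 4.71 at R6, 6.32, 6.09 and 6.15 at R7 and 4.06, 3.73 and 3.78 at R8.

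**Figure D4:**
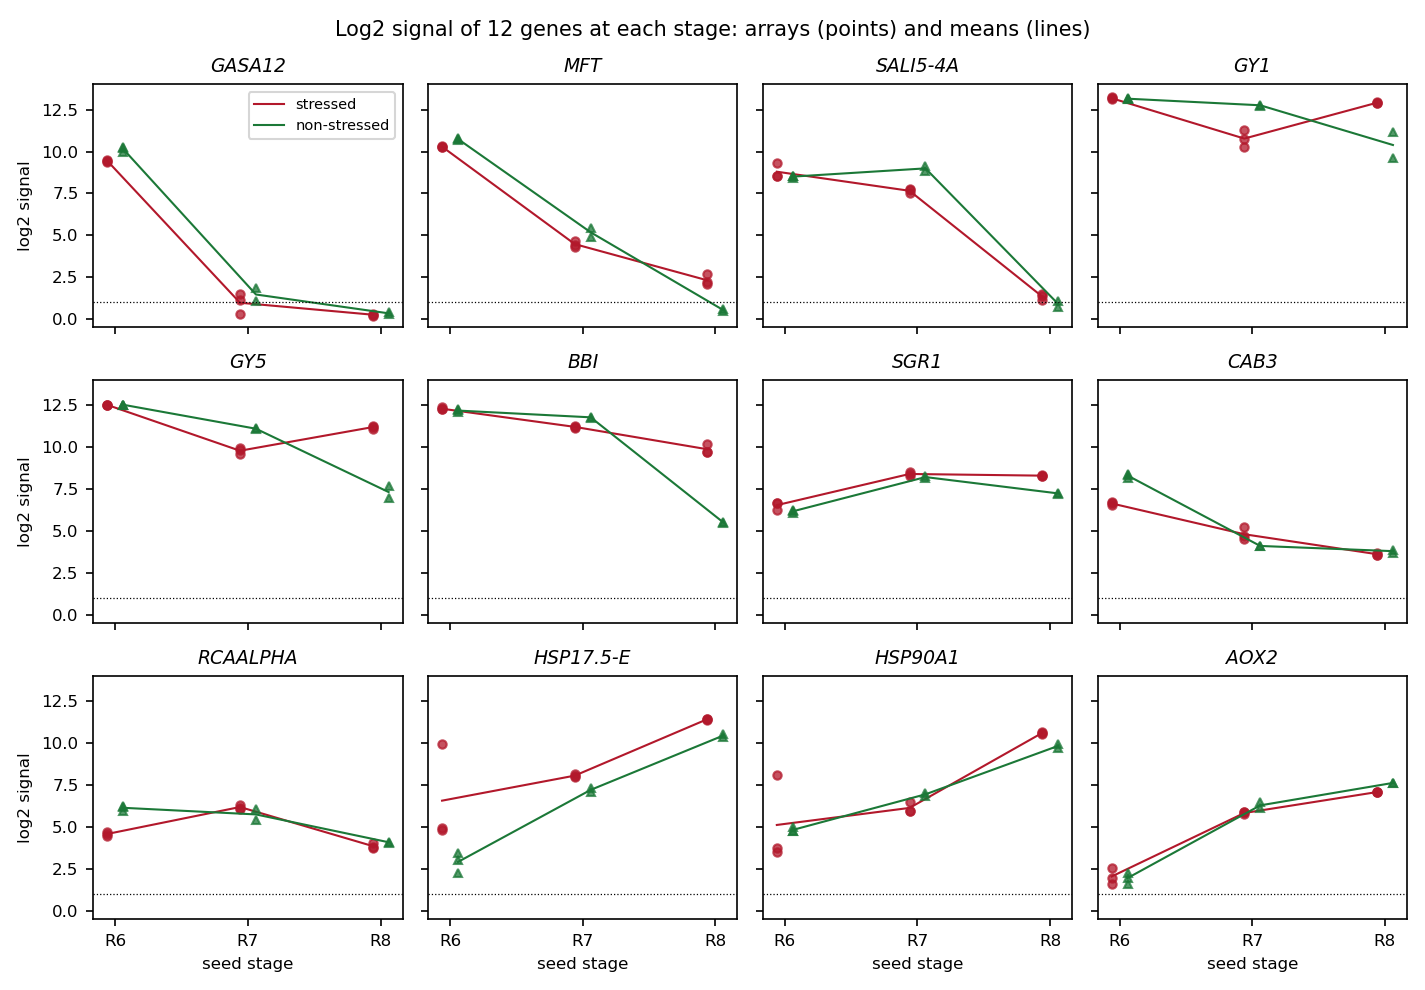
Log2 signal of 12 genes in stressed (circles) and non-stressed (triangles) seeds at R6, R7 and R8, with points for arrays and lines through the means; the dotted line is the background level of 1.02. Under stress GASA12 is near background by R7, SALI5-4A falls after R7, and GY1 and GY5 dip at R7. HSP17.5-E and HSP90A1 rise after R7, and before it they rise by an amount that depends on stressed R6 replicate 3 (48.5% and 35.9% of the change by R7 without that array).

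Most of the change was shared with seeds that matured without stress. In non-stressed seeds, with 2 arrays at R8 and 3 at R6, 12050 probe sets were called (62.8%), of which 6236 rose (32.5%) and 5814 fell (30.3%). The 4658 probe sets that rose in both environments are part of 5233 rises under stress and 6236 without it, and the 4581 that fell in both are part of 5204 falls under stress and 5814 without it. Opposite calls were rare, with 18 probe sets that rose under stress and fell without it, and 20 that fell under stress and rose without it. The difference between the 2 changes was tested directly and was called for 3887 probe sets (20.3%). In 2190 of them the R8 minus R6 change was higher under stress and in 1697 lower. Without stressed R6 replicate 3 these were 2397 and 2457, so that the excess of higher over lower rests on that array. With array weights they were 2375 and 2464. Higher and lower are signed, so a smaller fall counts as higher. With all arrays, 1244 of the 2190 fell in both environments, and 569 fell without stress and were not called under it. Of the 1697, 615 rose in both, and 471 rose without stress and were not called under it.

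For most storage protein genes, and for 5 of the protease inhibitors, the change was higher under stress, in that their signal fell less. Of the 13 storage globulins and albumins the change was higher under stress in 8 and lower in none (13.7% and 7.15% over all genes), and of 9 protease inhibitors it was lower in 2. BG7S-2 changed by -2.24 under stress and -6.74 without it (difference 4.5, adjusted p = 2.05e-07). At R8 it was at 9.09, 9.28 and 9.24 in stressed seeds and 4.99 and 4.73 in non-stressed seeds, while at R6 it was at 11.35, 11.42 and 11.56 in stressed seeds and 11.57, 11.65 and 11.60 in non-stressed seeds. The difference thus lay at R8. BBI behaved alike, with 9.72, 9.72 and 10.21 in stressed R8 seeds and 5.49 and 5.54 in non-stressed R8 seeds (difference 4.26), as did GY5 (difference 3.89), D-II (3.49) and KTI3 (3.26). SFERH-2 had the largest difference of the named genes, 5.37 (standard error 0.36), with 5.73, 5.77 and 5.76 in stressed R8 seeds and 1.36 and 2.62 in non-stressed R8 seeds. Of 12 gibberellin genes the change was higher under stress in 8 and lower in none, and these 8 fell into 2 kinds. For GASA27, GASA22, GASA29 and GA2OX6 the environments differed more at R8, and GASA27 kept 4.14, 4.22 and 4.30 in stressed R8 seeds and 1.28 and 1.51 in non-stressed R8 seeds. For GASA3, GASA4, GASA9 and GASA13 they differed more at R6. GASA4 had means of 1.11 in stressed R8 seeds and 0.93 in non-stressed R8 seeds, and of 3.05 in stressed R6 seeds and 5.46 in non-stressed R6 seeds.

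In the seed coat genes HPS and SCB1 the difference lay at R6 instead, while for Ep it had the opposite sign (-2.03). HPS had 6.11, 5.87 and 5.19 in stressed R6 seeds and 9.71, 9.26 and 9.11 in non-stressed R6 seeds, and was low at R8 in both (difference 3.87). SCB1 had 2.35, 2.22 and 0.96 in stressed R6 seeds and 6.02, 5.73 and 5.40 in non-stressed R6 seeds, with R8 arrays at background in both environments. IFR1, an isoflavone reductase, was likewise at 1.73, 2.36 and 2.91 in stressed R6 seeds and 6.6, 6.64 and 6.28 in non-stressed R6 seeds. The genes with the largest added fall under stress were higher in stressed R6 seeds. SHOOT2 had 7.54, 7.46 and 6.70 in stressed R6 seeds and 1.65, 1.88 and 2.44 in non-stressed R6 seeds (difference -4.15, adjusted p = 5.96e-05), CYP82A2 had 6.63, 6.16 and 7.69 in stressed R6 seeds and 1.75, 1.46 and 1.49 in non-stressed R6 seeds, and BFT had 4.43, 4.31 and 5.71 in stressed R6 seeds and 2.01, 1.18 and 1.19 in non-stressed R6 seeds. OLPa was another, with a difference of -3.35.

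PPCK4 and PIP2-13 rose under stress and had log2 fold changes below 0 without it. PPCK4 changed by 2.88 under stress and -0.82 without it (adjusted p of the difference 2.16e-06), with 5.17, 5.33 and 4.89 in stressed R8 seeds and 2.99 and 2.86 in non-stressed R8 seeds. PIP2-13 changed by 2.32 under stress and -0.57 without it (adjusted p of the difference 1.26e-06), with 8.29, 8.29 and 8.48 in stressed R8 seeds and 6.62 and 6.57 in non-stressed R8 seeds. Neither of the non-stressed changes reached 2-fold. CYP93A1, a hydroxylase of pterocarpan synthesis, and NAC12 rose in non-stressed seeds by 4.08 and 4.32 and were not called under stress (0.69 and 1.07). In the heat shock list the difference was called in 5 of 17 genes. BIP4 (1.94) and HSF-08 (1.15) were higher under stress, and HSF-14 (-1.20), HSF-03 (-1.11) and HSF-15 (-1.03) lower. The 5 heat shock genes with the largest rise, whose stressed R6 arrays were widely spread, gave no called difference with all arrays (HSP17.5-E, difference -2.68, adjusted p = 0.21). Without stressed R6 replicate 3 the change was higher under stress for BAG6A (2.69), HSP22.3 (1.99) and HSP90A1 (1.96), while HSP17.5-E (-0.99) and HSP22.5 (-0.07) were not called, and in the list 6 were then higher and 3 lower.

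**Figure D5:**
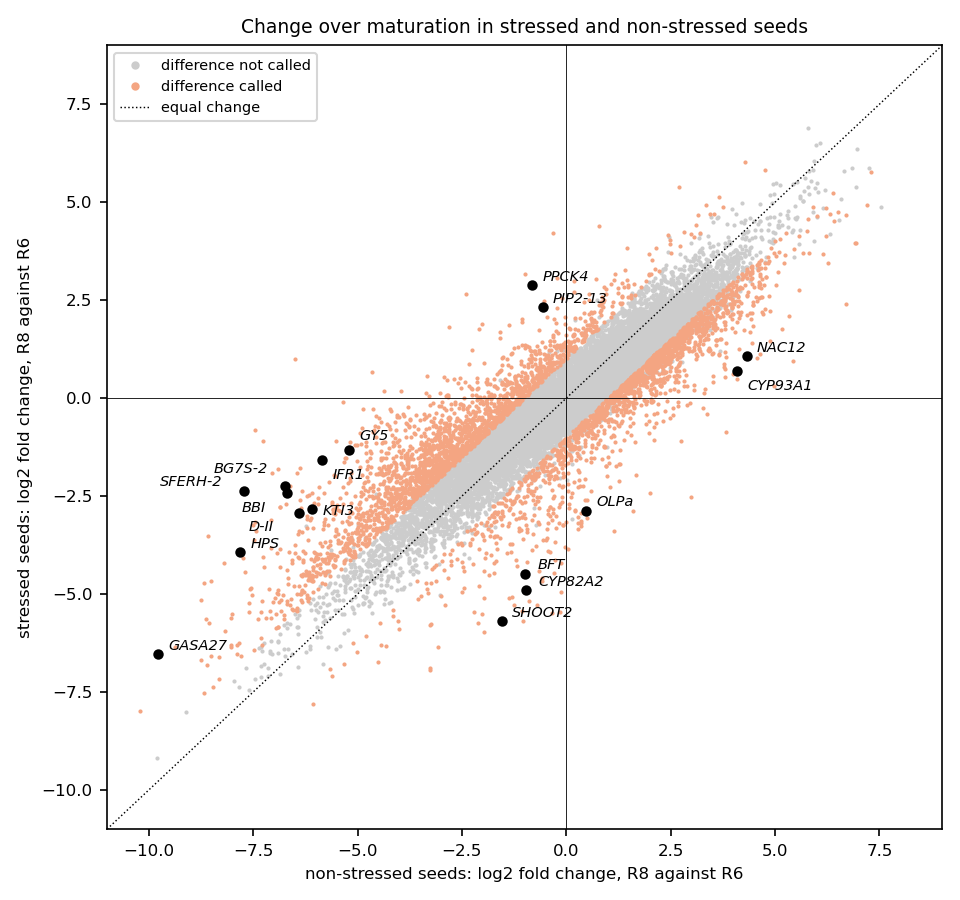
Log2 fold change from R6 to R8 in stressed seeds (vertical) against that in non-stressed seeds (horizontal) for 19194 probe sets, coloured where the difference was called (3887), with named genes in black. Most points lie along the dotted line of equal change; BG7S-2, BBI and SFERH-2 lie above it on the left and SHOOT2, CYP82A2 and BFT below it.

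Some of the largest changes were in probe sets with no symbol in the tables used. GmaAffx.72348.1.S1_at had 8.05, 8.05 and 8.07 in stressed R8 seeds and 0.90, 0.28 and 2.28 in stressed R6 seeds, 120-fold higher. Gma.8386.1.S1_at had 9.16, 9.06 and 8.90 in stressed R8 seeds and 1.96, 1.88 and 3.75 in stressed R6 seeds, with a log2 fold change of 6.51, or 7.12 when R6 replicate 3 is left out. Both exceeded every named gene that rose. Gma.5296.1.S1_at fell at least 158-fold, with 0.20, 0.34 and 0.42 in stressed R8 seeds and 8.98, 8.84 and 7.14 in stressed R6 seeds, with a log2 fold change of -8.00, or -8.59 when R6 replicate 3 is left out. Gma.8565.1.S1_at fell at least 164-fold to background, with 0.62, 0.60 and 0.50 in stressed R8 seeds and 8.39, 8.28 and 8.46 in stressed R6 seeds.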

How the data were processed

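Whole soybean seeds were measured on the Affymetrix Soybean Genome array, 1 array per sample. The authors corrected, normalized and summarised the arrays by RMA, and deposited log2 values for 61170 probe sets. No version of RMA was found in the sources used here. The deposited values entered the fits unaltered, and are relative to the other probe sets of an array. The sample labels state at least 50 seeds per sample and the paper's methods a lower number. Arrays have no read depth, and the number of arrays limits the precision.

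A soybean probe set (37593 in all) was kept if any of the 6 conditions had a mean over 3, the limit of the paper's methods, and 19194 passed. Gene names came from the platform table, with 8677 on 1 gene, 370 on several (not named) and 28546 with none listed, and 6010 of 6031 gene identifiers were found in the RefSeq gene table (Glycine_max_v4.0). The probe set of highest mean stood for its gene. Of the probe sets kept 2886 are of the _s_at or _x_at kind, which can bind close relatives, so their genes are uncertain among paralogues.

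With limma 3.58.1 in R 4.3.3, condition means were estimated from the 11 R6 and R8 arrays, and from all 16 arrays where R7 enters. The two-sided moderated p-values of all 19194 probe sets were adjusted together (Benjamini-Hochberg), and a call needs an adjusted p of at most 0.05 with at least a 2-fold change. The standard errors are those of the fit. Lists are given as counts and medians, with no set test. The code was tested on simulated data. The comparison, the gene lists and the rule for named genes were chosen with earlier results of these data known. Genes named are the 12 largest rises and falls with a symbol and no overlap of arrays, up to 5 called members per list, the stay-green genes the paper names, the 6 largest differences between environments in each direction, up to 5 genes of each pattern that turned round at R7, the 2 probe sets with no symbol that rose and fell most, and the array's control probe sets. Tissue marker genes and further list members, among them FAD2-2, FAD2-3, LOX3, BBI-1, GOLS, BIP4 and the heat stress factors, were added after their values were seen.

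Replicates come from different plants by the paper's methods. Replicate numbers were not used to pair samples. The correlation of deviations between same-numbered stressed R8 and R6 arrays was -0.023, 0.011 and 0.044. The alternatives were other filters, sets of arrays and normalizations, trend and robust settings, array weights, a replicate block and leaving out each array.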

Additional observations from a re-analysis of the deposited data

Results flagged for a closer look

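The change of log2 signal from R6 to R8 differed between stressed and non-stressed seeds, by the test of the difference itself (limma, adjusted p of at most 0.05 and at least 2-fold), in 75 of the 176 genes and probe sets named. The difference is the stressed minus the non-stressed change. It was positive in 56 and negative in 19, and 20.3% of all probe sets tested passed. Many of the genes had been chosen for this difference or for a large change, so the count is a description.

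Among seed storage and protease inhibitor genes the differences were 4.5 for BG7S-2, 4.26 for BBI, 3.89 for GY5, 3.49 for D-II, 3.26 for KTI3, 2.70 for A1, 2.49 for GY1, 1.98 for CG-1, 1.71 for KTI-2, 1.48 for P34 and 1.31 for GY2. In the oil genes they were 2.23 for FAD3B, 1.81 for FAD2-1A and 1.58 for ACCB-2. Among the inhibitors BBI-1 (-2.10), which rose in both environments and less under stress, and BBI-2 (-2.18), which fell under stress and was not called without it, had negative differences.

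Positive differences were also found among hormone genes, with 3.26 for GASA27, 2.99 for GASA22, 2.58 for GASA4, 2.04 for GA2OX6, 2.70 for ACS1, 2.23 for MFT, 1.16 for ADR11, 1.32 for AOC3 and 1.39 for LOX1.1. Sugar, nitrogen and organic acid genes gave 2.50 for SWEET24, 2.31 for SWEET13, 1.72 for LOC547931, 1.76 for GS1GAMMA2, 2.05 for EU3, 1.43 for PEPC7 and 3.70 for PPCK4. The aquaporins gave 2.89 for PIP2-13, 1.71 for PIP2-8, 1.35 for NIP1-8 and 1.11 for PIP2-1. Seed coat and flavonoid genes gave 4.27 for IFR1, 3.87 for HPS, 3.74 for SCB1, 3.25 for CHR5, 2.92 for LAR1 and 1.65 for F3H.

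Redox and alcohol dehydrogenase genes gave 5.37 for SFERH-2, 2.78 for ADH2, 1.12 for SODB2 and 1.05 for DHAR4. In plastid genes the differences were 1.85 for RCABETA, 1.49 for CAB3, 1.32 for PETC and 1.32 for RCAALPHA. Transcription factors with a positive difference gave 2.76 for MYB172, 1.92 for ERF6, 1.20 for ERF5 and 1.05 for MYB179, and the remaining positive values were 1.96 for TUBB, 1.42 for PRP1, 1.36 for CYP72A67 and 1.06 for SOY69.

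The most negative differences were -4.15 for SHOOT2, -3.94 for CYP82A2, -3.50 for BFT, -3.39 for CYP93A1, -3.35 for OLPa and -3.25 for NAC12. They were followed by -3.09 for CYP93A3, -2.42 for PGIP, -2.33 for AP2-9, -2.13 for CHR1 and -2.03 for Ep. The rest were -1.92 for DREB2A2, -1.80 for PSK5, -1.74 for MYB145, -1.58 for ALDH3H1, -1.32 for EBP and -1.29 for NAC51, and Gma.8565.1.S1_at at -1.73. Stressed R6 replicate 3 was far from its partners for NAC12, PSK5 and CHR1.

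Among these 75, the log2 fold changes had opposite signs in 4 genes that were above background at 1 stage or both in each environment. PPCK4 gave 2.88 under stress and -0.82 without it, PIP2-13 gave 2.32 under stress and -0.57 without it, and OLPa gave -2.87 under stress and 0.48 without it. AP2-9 gave -2.14 under stress and 0.19 without it. None of these 4 non-stressed changes reached 2-fold, so none was called. LAR1 was at background in stressed seeds at both stages and changed by -2.85 without stress, so no sign can be given under stress. List genes outside the 176 were not counted here, and BBI-2 and HSF-08 also had opposite signs. From R6 to R8 the BBI-2 means went from 2.94 to 1.06 under stress and from 2.24 to 2.54 without it. Those of HSF-08 went from 3.75 to 4.61 under stress and from 5.26 to 4.97 without it. Without stressed R6 replicate 3 the differences of DHAR4 (0.93) and MYB179 (0.84) were no longer called. Called only without that array were MS (-2.95), NAC26 (-1.78), BZIP71 (-1.62), BCH5 (-1.15) and STP (-1.03). On the positive side these were GmaAffx.72348.1.S1_at (1.68), GDH1 (1.16), Gma.8386.1.S1_at (1.05) and BZIP124 (1.04), besides BAG6A, HSP22.3 and HSP90A1 as given above.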

How the results depend on the processing

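All counts of called probe sets in the 5 comparisons stayed within 1.5 times of the values given, under every alternative run. Leaving out 1 array at a time gave 10200 to 10518 calls for R8 against R6 in stressed seeds, 11950 to 12073 in non-stressed seeds and 3705 to 4854 for the difference between them, 6539 to 7489 for R7 against R6, 6516 to 7801 for R8 against R7 and 271 to 279 for the list genes. With no filter on signal 12186 of 37593 probe sets were called in the stressed comparison. When every probe set of the list genes was counted, 147 rose and 260 fell, in place of 92 and 187. The nitrogen list then had 10 rises and 12 falls, and the cell wall and cytoskeleton lists had 1 rise and 8 falls each. Without stressed R6 replicate 3, 9829 of the 10437 calls were kept.

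Of 158 named genes and probe sets called, 155 were called under every alternative, and HSP22.5, PDS1 and FAD2-3 were not. HSP22.5 was not called without any 1 of the R8 arrays, without R6 replicate 1 or 2, or with only the 6 arrays of the comparison, and its log2 fold changes were 1.65 to 3.81 over the left-out arrays. Some small changes, none of them called, turned sign. PSK5 was -0.07 to 0.76, ERF6 -0.16 to 0.02, MYB177 -0.09 to 0.11 and RCABETA -0.50 to 0.01 over the left-out arrays, and LOX3 was 0.10 after a further quantile normalization. FAD2-2 was called with that normalization (1.06), and CYP93A1 without stressed R6 replicate 3 (1.02). The cause was not tested.

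With the replicate number as a replicate block 10439 probe sets were called in stressed seeds, 12047 in non-stressed seeds, 3725 for the difference, 6673 for R7 against R6, 7018 for R8 against R7 and 280 list genes. The correlations of same-numbered arrays were close to 0, so the numbers do not pair the samples.

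Signals near 13.28 and near background leave part of a change unmeasured. RMA values are relative, so a change of total RNA per seed is not seen.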
